A study of Mus musculus with 6 samples.

Results

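The 10 genes described here handle the calcium of the endoplasmic reticulum store and of the cell border: Itpr1, Itpr2 and Itpr3 (store release channels), Atp2a2 and Atp2a3 (store pumps), Atp2b1 (a surface pump), Stim1, Stim2 and Orai1 (store-operated entry) and Akap6 (a scaffold). They were found by symbol among the 24940 genes of the deposited table, and all 10 were among the 11905 genes tested. Itpr1 to Orai1 were listed by function, with earlier results of these data known. Akap6 was chosen by its FPKM with RANKL against no RANKL, where it rose, so its levels in these conditions are given as a description. RNA-seq of mouse bone marrow-derived macrophages (BMMs), the precursors of osteoclasts, covered 3 conditions with 2 libraries each. RANKL + LEA cells received M-CSF at 30 ng/mL, RANKL at 100 ng/mL and LEA, the ethyl acetate fraction of an aqueous shiitake (Lentinula edodes) extract, at 10 µg/mL. RANKL cells received M-CSF and RANKL at these doses. No RANKL cells received M-CSF alone, the growth factor that all 3 conditions shared. RANKL is the cytokine that drives osteoclast formation, and M-CSF keeps the precursors alive. The mice were 6 to 8 weeks old. Strain and kits are described in different ways: C57BL/6 with TRIzol and a standard Illumina protocol in the labels, male ICR with RNeasy and SMARTer Stranded reagents in the methods. The sources used here do not give the RNA-seq harvest time, a solvent for cells without LEA or whether animals were pooled.

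Inositol trisphosphate (IP3), made by phospholipase C, opens the IP3 receptors and lets calcium out of the endoplasmic reticulum. The SERCA pumps return it to the store, the plasma membrane calcium pumps push it out of the cell, and the STIM proteins sense an empty store and open the ORAI channels of the plasma membrane. In osteoclast precursors, RANKL sets off calcium oscillations that act through the phosphatase calcineurin on the transcription factor NFATc1.

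Depth, recovered from the steps of the low FPKM values, was 46382000 to 49589000 reads per library, and 36610335 to 40026043 reads lay on genes. The 2 libraries of a condition had a Pearson correlation across the genes tested of 0.985 for RANKL + LEA, 0.987 for RANKL and 0.988 for no RANKL. Of 8 osteoclast markers, all had a mean of at least 1 FPKM in RANKL + LEA and in RANKL cells and 4 did in no RANKL cells. Their summed level was 2495 to 2637 FPKM in RANKL + LEA, 4998 to 5837 FPKM in RANKL and 26.7 to 28.2 FPKM in no RANKL libraries. All 8 macrophage markers were at 1 FPKM or more in every condition, and summed to 1121 to 1156 FPKM in RANKL + LEA, 1121 to 1168 FPKM in RANKL and 2083 to 2250 FPKM in no RANKL libraries. Csf1r and Cd68 made up most of these sums, and 5 of the 8 (Adgre1, Mertk, C1qa, C1qb and C1qc) were called higher in RANKL + LEA than in RANKL cells. Of the other cell types, markers of neurons, T and NK cells and B cells had no mean of 1 FPKM or more. The 5 erythroid and platelet markers summed to 36.8 to 44.1 FPKM in RANKL + LEA, 10.4 to 11.6 FPKM in RANKL and 400.3 to 495.2 FPKM in no RANKL libraries, nearly all of it Pf4. The 7 osteoblast and stroma markers summed to 4.31 to 6.11 FPKM, 3.53 to 3.78 FPKM and 6.98 to 7.21 FPKM in the same conditions, and the 6 neutrophil markers to 1.13 to 1.73 FPKM, 0.406 to 0.602 FPKM and 3.19 to 3.90 FPKM. The part of these shifts in the differences below was not tested. Nothing in the labels tells whether both libraries of 1 condition were grown from different mice or dishes, and the p-values therefore cover no more than the spread among these 6 libraries. In bulk RNA, fewer cells of a type and less RNA per cell cannot be told apart.

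With RANKL, 5 of the 9 genes listed by function were downregulated and 0 were upregulated. The 5 were Itpr1, Itpr3, Atp2a3, Stim1 and Orai1, at 40.7% to 60.4% of the no RANKL level. A gene was called when its limma adjusted p was under 0.05 and its level differed by 1.5-fold or more. By this rule 35.7% of all genes tested were called, 17.8% higher and 17.8% lower. The median log2 fold change of the 9 genes was −0.73, against 0.00 for all genes tested. With voom on the recovered reads 5 were likewise lower and 0 higher. At an unadjusted p under 0.05 and with no fold limit, limma had 6 lower and 0 higher. Atp2b1, the gene added, had a limma adjusted p of 0.00917 but was under the fold limit. All counts at an unadjusted p given below likewise used no fold limit. In 8 of the 9 genes both RANKL libraries lay below both no RANKL libraries, and Stim2 was the exception. Such separation of 2 libraries from 2 has a two-sided exact permutation p of 0.333. Its share over all genes tested was not counted, nor was that of an unadjusted p under 0.05.

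**Figure D1:**
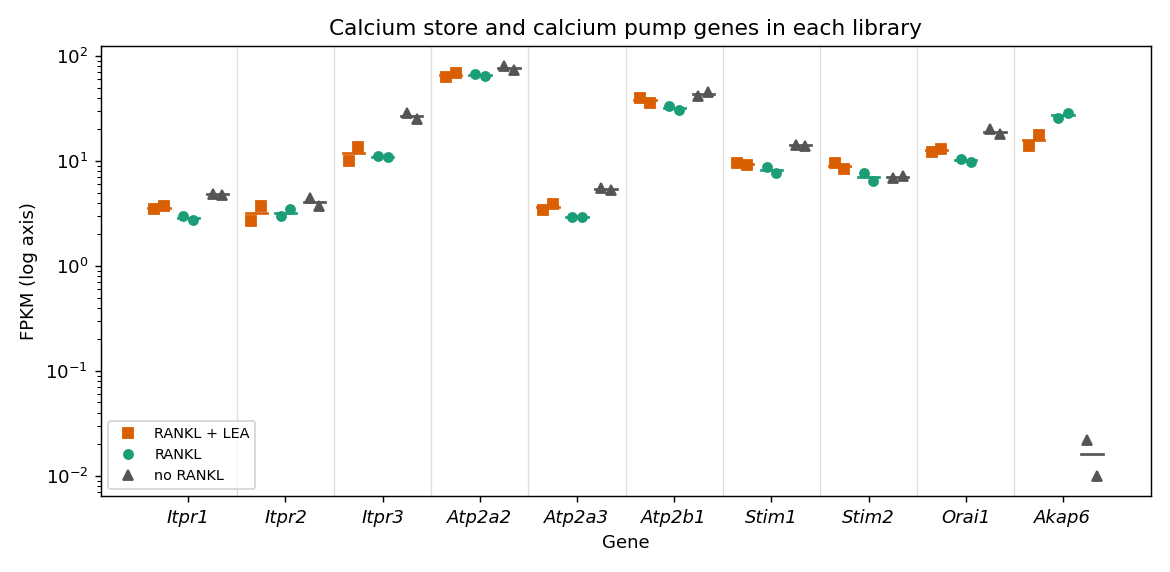
FPKM on a log axis (vertical) of the 10 genes (horizontal), with 1 point per library, a short bar at the mean, and RANKL + LEA, RANKL and no RANKL drawn side by side. Akap6 sits at 13.9 and 17.9 FPKM, 26.0 and 28.4 FPKM, and 0.022 and 0.01 FPKM in these conditions, while the other 9 genes stay between 2.70 and 79.9 FPKM in every library.

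When LEA was added to RANKL, 0 of the 9 genes listed by function were called by limma or by voom. Akap6, lower in both RANKL + LEA libraries, is left out of this count because the RANKL libraries compared are those by which it was chosen. Over all genes tested, limma called 6.31% in this comparison, 4.54% higher and 1.77% lower. At an unadjusted p under 0.05, 4 of the 9 (Itpr1, Atp2a3, Stim2 and Orai1) were higher and 0 were lower. In 6 genes both RANKL + LEA libraries lay above both RANKL libraries, but their log2 fold changes were 0.19 to 0.34 and did not pass the test. The share of all genes tested was not counted for this separation or for the unadjusted p, so both counts are a description. The median over the 9 genes was 0.25, against 0.05 for all genes tested. The 95% intervals of Itpr1, Atp2a3 and Stim2 reached 0.60, 0.60 and 0.65 and so held a 1.5-fold rise, and those of Atp2b1, Stim1 and Orai1 ended at 0.50, 0.45 and 0.58, below it.

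Against no RANKL, RANKL + LEA cells had 1 of the 9 genes listed by function called lower, Itpr3, where limma called 27.3% of all genes tested, 15.5% higher and 11.8% lower. In 8 of the 9 both RANKL + LEA libraries lay below both no RANKL libraries, in Stim2 they lay above, and the median log2 fold change was −0.42, against 0.06 for all genes tested. The share of all genes tested with such separation was not counted. The adjusted p was under 0.05 for 5 genes, of which Itpr1, Atp2a3, Stim1 and Orai1 stayed under the fold limit. For Stim1 (−0.58) and Orai1 (−0.58) the margin was small, and each was called in 7 of 17 alternatives. The count was 4 without no RANKL replicate 2, 2 without RANKL + LEA replicate 1, 3 without RANKL + LEA replicate 2 and 3 with voom. No gene was called higher by limma or voom, and 1 (Stim2) was higher at an unadjusted p under 0.05.

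**Figure D2:**
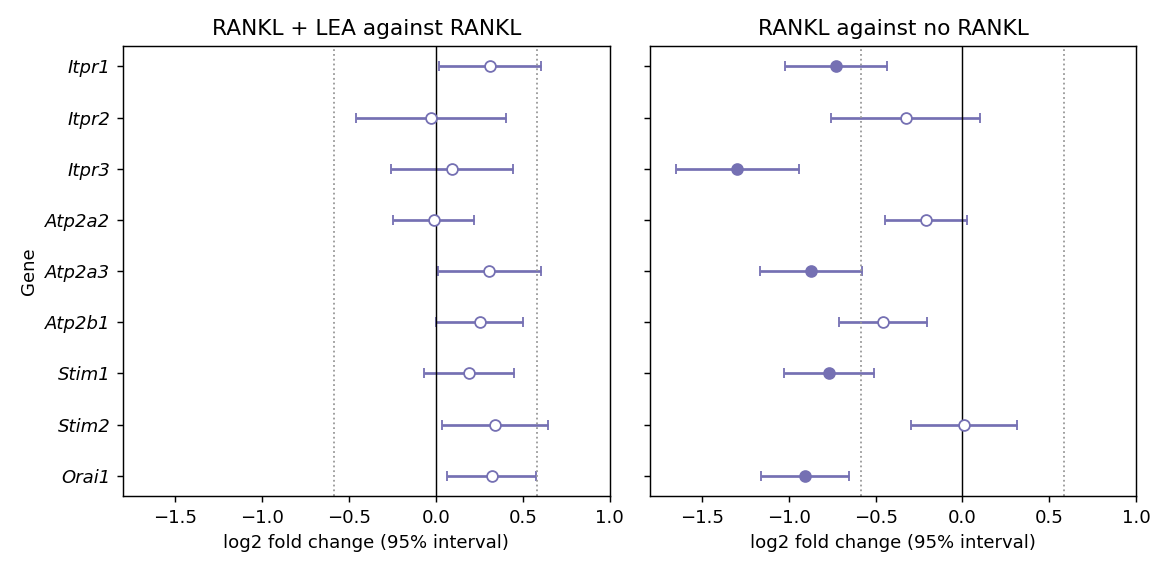
Log2 fold change (horizontal) of each gene (vertical) for RANKL + LEA against RANKL and for RANKL against no RANKL, with 95% intervals, filled points for genes that passed the test and dotted lines at 1.5-fold. Akap6, chosen for its rise with RANKL, is left out. The filled points are Itpr1, Itpr3, Atp2a3, Stim1 and Orai1 between −0.73 and −1.30 with RANKL, and with LEA all points are open.

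The IP3 receptors were dominated by Itpr3 in every library. Itpr3 (mm10 chromosome 17, 27057304 to 27122223, 58 exons) was at 10.1 and 13.5 FPKM in RANKL + LEA, 11.1 and 10.8 FPKM in RANKL, and 29.0 and 25.3 FPKM in no RANKL libraries. Both no RANKL libraries stood far above the other 4, and the RANKL + LEA and RANKL values overlapped. Itpr3 had the largest fall with RANKL of the 9 genes, with a log2 fold change of −1.30 (SE 0.15, limma adjusted p = 0.00025). It was also the one gene of the 9 called in RANKL + LEA against no RANKL (−1.20, SE 0.15, limma adjusted p = 0.000562). Between RANKL + LEA and RANKL the difference was 0.09 (95% interval −0.26 to 0.44, limma adjusted p = 0.786).

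Itpr1 (chromosome 6, 108213096 to 108551116, 62 exons) encodes the receptor best known from cerebellar neurons. It was at 3.46 and 3.69 FPKM in RANKL + LEA, 2.97 and 2.75 FPKM in RANKL, and 4.86 and 4.75 FPKM in no RANKL libraries. The 3 conditions did not overlap, and RANKL + LEA lay in between. With RANKL the log2 fold change was −0.73 (SE 0.13, limma adjusted p = 0.00193), and it was 0.31 for RANKL + LEA against RANKL (95% interval 0.02 to 0.60, limma adjusted p = 0.185).

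Itpr2 (chromosome 6, minus strand, 146108299 to 146502223, 57 exons), the receptor that RANKL-induced oscillations need in mouse precursors, was at 2.70 and 3.70 FPKM in RANKL + LEA, 2.98 and 3.48 FPKM in RANKL, and 4.43 and 3.73 FPKM in no RANKL libraries. The no RANKL libraries were highest, by a margin smaller than the gap between the libraries of one condition. The log2 fold change with RANKL was −0.33 (95% interval −0.76 to 0.10, limma adjusted p = 0.181), and that of RANKL + LEA against RANKL was −0.03 (−0.46 to 0.40, limma adjusted p = 0.956). Itpr2 was called in neither comparison under any alternative tried. Exons of Itpr1 and Itpr3 share 108 and 181 bases (Gm44040, Gm44101) and 233 bases (Itpr3os) with genes on the opposite strand, and both strands were counted together.

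FPKM is per length, so levels of different genes are set side by side here. Replicate libraries still differed with exon length, as described below, so comparisons between genes are approximate. The 3 receptors summed to 16.3 and 20.9 FPKM in RANKL + LEA, 17.1 and 17.1 FPKM in RANKL, and 38.3 and 33.8 FPKM in no RANKL libraries. Itpr3 made up 63.4% ± 1.75 of this sum in RANKL + LEA, 64.3% ± 1.18 in RANKL and 75.3% ± 0.602 in no RANKL cells (SD, n = 2 each). Its share was lower in all 4 libraries with RANKL than in both without it. With 2 libraries against 2, the smallest two-sided exact permutation p is 0.333, so no test was run on the shares.

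Most of the store pump RNA was Atp2a2 in all conditions. Atp2a2 (SERCA2, chromosome 5, minus strand, 122456324 to 122502225, 20 exons), the pump of most tissues, was at 62.7 and 68.8 FPKM in RANKL + LEA, 67.1 and 65.4 FPKM in RANKL, and 79.9 and 73.5 FPKM in no RANKL libraries. It was the most abundant of the 10 genes in every condition, and the no RANKL libraries lay a little above the other 4. The log2 fold change was −0.21 with RANKL (95% interval −0.44 to 0.03, limma adjusted p = 0.123) and −0.01 for RANKL + LEA against RANKL (−0.25 to 0.22, limma adjusted p = 0.967). Neither interval reached a 1.5-fold change. Exons of Atp2a2 share 83 bases with Gm43361 on the opposite strand.

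Atp2a3 (SERCA3, chromosome 11, 72961169 to 72993043, 21 exons), the pump of blood cells and some epithelia, was at 3.43 and 3.87 FPKM in RANKL + LEA, 2.94 and 2.92 FPKM in RANKL, and 5.55 and 5.32 FPKM in no RANKL libraries. The conditions did not overlap, with RANKL lowest. Atp2a3 had a log2 fold change of −0.87 with RANKL (SE 0.13, limma adjusted p = 0.0008), 0.31 for RANKL + LEA against RANKL (95% interval 0.01 to 0.60, limma adjusted p = 0.193) and −0.56 for RANKL + LEA against no RANKL (limma adjusted p = 0.00952, under the fold limit). Of Atp2a2 and Atp2a3 together, Atp2a3 made up 5.26% ± 0.0979 in RANKL + LEA, 4.23% ± 0.0523 in RANKL and 6.63% ± 0.176 in no RANKL cells (SD, n = 2 each). Atp2a1, the SERCA pump of fast muscle, did not exceed 0.11 FPKM in any library.

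Atp2b1 (PMCA1, chromosome 10, 98915152 to 99026143, 21 exons), the housekeeping pump of the plasma membrane, was at 39.8 and 36.1 FPKM in RANKL + LEA, 33.3 and 30.5 FPKM in RANKL, and 41.7 and 45.9 FPKM in no RANKL libraries. RANKL libraries were lowest and did not overlap with either other condition. The log2 fold change with RANKL was −0.46 (SE 0.11, limma adjusted p = 0.00917), past the limit of the p but under the fold limit, and that of RANKL + LEA against RANKL was 0.25 (95% interval from just under 0 to 0.50, limma adjusted p = 0.213). A further surface pump, Atp2b4 (PMCA4), belongs to the list of other pumps and moved the opposite way. It was at 4.43 and 5.37 FPKM in RANKL + LEA, 7.48 and 6.92 FPKM in RANKL, and 0.866 and 0.815 FPKM in no RANKL libraries, and rose with RANKL (log2 fold change 2.96, SE 0.15, limma adjusted p = 2.48e-06). Even so, Atp2b1 stayed above Atp2b4 in every library.

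In the store-operated entry system Stim1 and Orai1 fell with RANKL, and the estimate for Stim2 was near 0. Stim1 (chromosome 7, 102267824 to 102436855, 12 exons), the main store sensor, was at 9.69 and 9.14 FPKM in RANKL + LEA, 8.75 and 7.77 FPKM in RANKL, and 14.3 and 14.0 FPKM in no RANKL libraries. The no RANKL libraries stood apart from the other 4. Stim1 had a log2 fold change of −0.77 with RANKL (SE 0.11, limma adjusted p = 0.000786) and 0.19 for RANKL + LEA against RANKL (95% interval −0.07 to 0.45, limma adjusted p = 0.375).

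Stim2 (chromosome 5, 53998523 to 54121057, 12 exons), a sensor that responds to smaller losses from the store, was at 9.60 and 8.43 FPKM in RANKL + LEA, 7.72 and 6.50 FPKM in RANKL, and 6.84 and 7.24 FPKM in no RANKL libraries. The RANKL values spanned the no RANKL values, and both RANKL + LEA libraries were above the other 4. The log2 fold change was 0.01 with RANKL (95% interval −0.30 to 0.32, limma adjusted p = 0.958) and 0.34 for RANKL + LEA against RANKL (0.03 to 0.65, limma adjusted p = 0.166). The ratio of Stim1 to Stim2 was 1.01 and 1.08 in RANKL + LEA, 1.13 and 1.20 in RANKL, and 2.09 and 1.93 in no RANKL libraries. The sensors were thus close to even in all 4 libraries with RANKL, and Stim1 led in both without it.

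Orai1 (chromosome 5, 123015074 to 123030452, 2 exons), the pore of the entry channel, was at 12.3 and 13.1 FPKM in RANKL + LEA, 10.4 and 9.83 FPKM in RANKL, and 20.1 and 18.1 FPKM in no RANKL libraries. The 3 conditions did not overlap, with RANKL lowest. Orai1 had a log2 fold change of −0.91 with RANKL (SE 0.11, limma adjusted p = 0.0003), 0.32 for RANKL + LEA against RANKL (95% interval 0.07 to 0.58, limma adjusted p = 0.119) and −0.58 for RANKL + LEA against no RANKL (limma adjusted p = 0.00421, just under the fold limit). Orai1 starts 513 kilobases from the start of Atp2a2, which lies on the minus strand. The exons of Orai1 share 7 bases with Gm2479 on the opposite strand.

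Orai2, a paralogue that can form channels with Orai1, moved the other way. It was at 27.0 and 27.1 FPKM in RANKL + LEA, 32.4 and 26.2 FPKM in RANKL, and 7.63 and 8.21 FPKM in no RANKL libraries, a rise of 1.87 on the log2 scale with RANKL (SE 0.13, limma adjusted p = 1.26e-05). Orai3 was at 10.9 and 12.8 FPKM, 15.3 and 11.6 FPKM, and 12.4 and 13.4 FPKM in the same order of conditions, with overlap. Orai1 therefore made up 24.6% ± 0.146 of the summed ORAI level in RANKL + LEA, 19.3% ± 1.92 in RANKL and 47.9% ± 3.24 in no RANKL cells (SD, n = 2 each). The share of Orai2 was 52.5% ± 1.84, 55.4% ± 0.471 and 19.9% ± 1.19 in the same conditions. The sum itself was 50.2 and 52.9 FPKM in RANKL + LEA, 58.1 and 47.6 FPKM in RANKL, and 40.1 and 39.7 FPKM in no RANKL libraries.

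**Figure D3:**
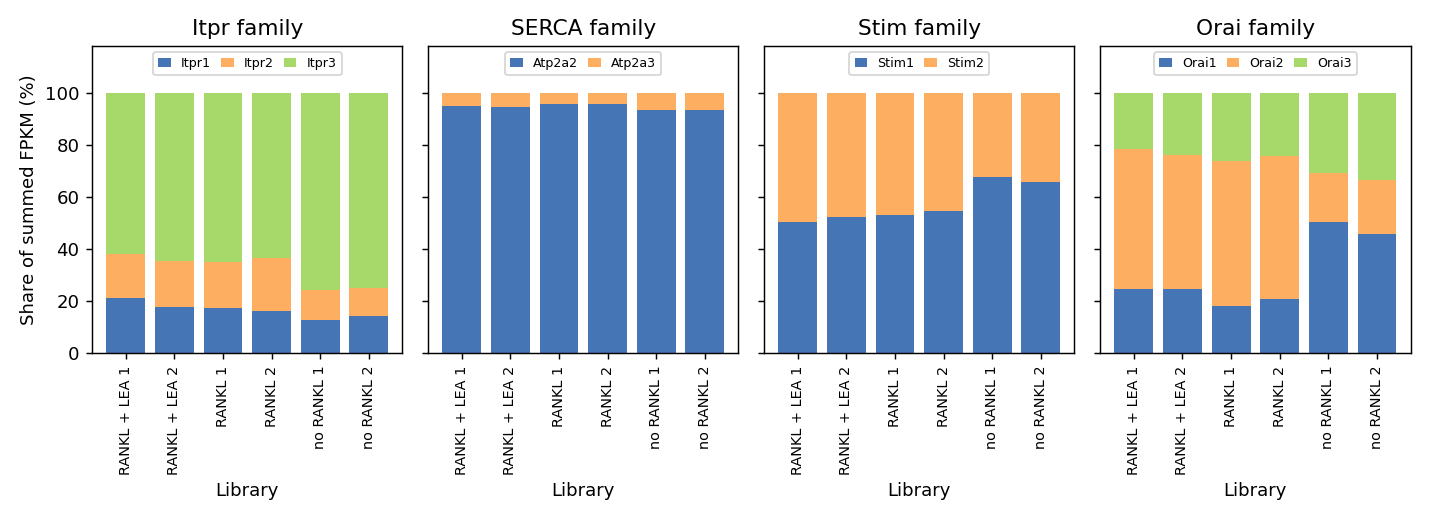
Share of the summed FPKM of 4 gene families (vertical, percent) in each of the 6 libraries (horizontal), with 1 colour per gene. The share of Itpr3 is 62.2% to 65.2% in the 4 libraries with RANKL and 74.9% to 75.8% in the 2 without, and Orai2 makes up 51.2% to 55.7% of the ORAI sum in the libraries with RANKL.

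Akap6 stood apart from the other 9 genes in its levels. AKAP6 (mAKAP) is a large scaffold of the nuclear envelope of heart and skeletal muscle cells, where it gathers protein kinase A, the phosphodiesterase PDE4D, calcineurin and the ryanodine receptor. The gene (chromosome 12, 52699383 to 53151015, plus strand, 14 exons with 10247 bases, in 1 genomic copy) shares no exon bases with another annotated gene. It was at 13.9 and 17.9 FPKM in RANKL + LEA, 26.0 and 28.4 FPKM in RANKL, and 0.022 and 0.01 FPKM in no RANKL libraries. These values rest on 6813 and 9075 reads, 12716 and 13514 reads, and 11 and 5 reads. Per read of depth, RANKL cells had 1673 times as many Akap6 reads as no RANKL cells, and RANKL + LEA cells 979 times as many. Both ratios rest on the 11 and 5 reads of the no RANKL libraries and are therefore imprecise. The fitted log2 fold change of RANKL against no RANKL, 7.88, depends on the pseudocount at such low levels and was the 9th highest of the 11905 genes tested. This rise is what chose the gene, and no test of it is given.

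By mean level Akap6 ranked 3593rd of 24940 genes in RANKL + LEA, 2121st in RANKL and 15177th in no RANKL cells. Among the 10 genes it ranked 3 in RANKL + LEA and in RANKL, behind Atp2a2 and Atp2b1, and 10 in no RANKL cells. Its level was 1.37 and 1.32 times that of Itpr3 in RANKL + LEA libraries and 2.33 and 2.62 times in RANKL libraries.

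With LEA, Akap6 was at 58.4% of the mean RANKL level, a log2 fold change of −0.78. Both RANKL + LEA libraries lay below both RANKL libraries, though the RANKL + LEA libraries differed from each other more than the RANKL libraries did. The log2 fold change was −0.60 without RANKL + LEA replicate 1 and −0.96 without RANKL + LEA replicate 2. The RANKL libraries compared here are those that chose the gene for its high level, so these values are a description and no test is given.

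All 8 osteoclast markers were called lower with LEA, at 40.6% to 58.2% of the RANKL mean with a median of 50.7%. Of the 8 macrophage markers, 5 were called higher with LEA, at 1.65 to 2.11 times the RANKL mean (limma adjusted p = 0.00423 to 0.0142). Cd14 was at 1.48 times and did not reach the fold limit, and Csf1r and Cd68 were at 0.922 and 0.791 times and were not called. The part of a changed share of osteoclasts and macrophages in the Akap6 difference was not tested. Of the 8 muscle markers, Ckm alone was at 1 FPKM or more. It was at 4.70 and 4.82 FPKM in RANKL + LEA, 4.97 and 4.83 FPKM in RANKL, and 1.86 and 1.75 FPKM in no RANKL libraries, so that it was higher in all libraries with RANKL, as Akap6 was. The muscle markers summed to 4.90 to 5.12 FPKM, 5.10 to 5.37 FPKM and 1.93 to 2.11 FPKM in these conditions. The neuron markers summed to 0.137 to 0.146 FPKM in RANKL + LEA, 0.085 to 0.123 FPKM in RANKL and 0.045 to 0.09 FPKM in no RANKL libraries.

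**Figure D4:**
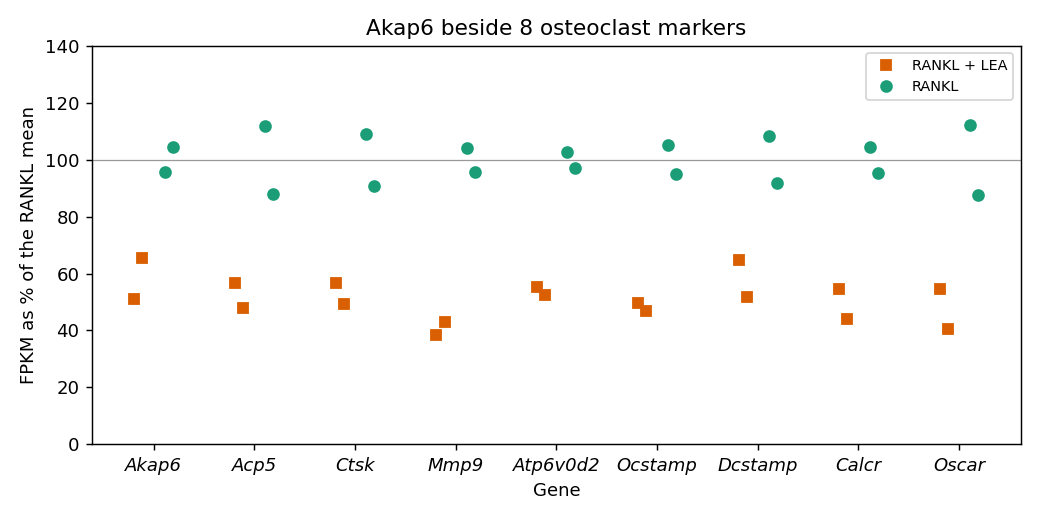
FPKM as a percentage of the mean of the RANKL libraries (vertical) for Akap6 and 8 osteoclast markers (horizontal), with 1 point per RANKL + LEA or RANKL library. Mean levels with RANKL + LEA are 40.6% to 58.2% of RANKL for the markers and 58.4% for Akap6, and the points of the conditions do not overlap for any of the 9 genes. The share of all genes tested with such separation was not counted. Akap6 was chosen by its level in these RANKL libraries, so its points are a description.

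Among the 5 genes with the profile closest to that of Akap6 were Slc9b2, Ocstamp, Rufy4 and Calcr. Likeness was the Euclidean distance between log2(FPKM + 0.1) profiles centred on each gene's own mean, over the 6 libraries, and 10699 genes averaging 1 FPKM or more were compared. The distance was 0.38 for Slc9b2, 0.45 for Ocstamp, 0.51 for Rufy4 and 0.60 for Calcr. Slc9b2, a sodium/proton exchanger, was at 84.8 and 78.7 FPKM in RANKL + LEA, 154.6 and 148.7 FPKM in RANKL, and 0.574 and 0.474 FPKM in no RANKL libraries. Like Akap6, Slc9b2 was highest in both RANKL libraries, lower in both RANKL + LEA libraries and far lower in no RANKL libraries. Because the 5 genes were picked over these same 6 libraries, the shared order was set by that choice and is only a description. Ocstamp, a membrane protein needed for precursor fusion, and Calcr, the calcitonin receptor, are also among the osteoclast markers, and Rufy4 and Calcr were listed at 0 in both no RANKL libraries.

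The sequence before the start of Akap6 differed in composition from that of the other genes. Windows of 250 bases before the start were read from the RefSeq promoter table of GRCm38.p6, matched by symbol for 8 of the 10 genes (all but Itpr1 and Atp2a2). The window of Akap6 had 43.6% G and C and 0 CpG dinucleotides, and 7.87% of all 32851 windows had none. The windows of the other 7 genes had 66.8% to 80.8% G and C and 20 to 43 CpG dinucleotides, above the upper quartile of 16 over all windows (median 6). The windows of Akap6, Itpr3 and Orai1 are shown because they hold the gene with the rise and a pair that fell with RANKL. They lie on the plus strand at chr12:52699133-52699382, chr17:27057054-27057303 and chr5:123014824-123015073, and capitals mark GGAAA or its complement TTTCC, the core that NFAT factors bind.
Akap6: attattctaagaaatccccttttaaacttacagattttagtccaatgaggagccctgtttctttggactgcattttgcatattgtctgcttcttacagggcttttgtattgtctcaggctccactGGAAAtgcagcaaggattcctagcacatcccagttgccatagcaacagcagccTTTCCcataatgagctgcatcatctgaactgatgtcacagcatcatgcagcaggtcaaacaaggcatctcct
Itpr3: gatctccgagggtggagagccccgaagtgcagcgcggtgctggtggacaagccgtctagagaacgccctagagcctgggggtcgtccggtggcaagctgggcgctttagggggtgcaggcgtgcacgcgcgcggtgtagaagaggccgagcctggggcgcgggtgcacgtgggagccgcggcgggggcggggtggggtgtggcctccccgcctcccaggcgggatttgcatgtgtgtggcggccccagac
Orai1: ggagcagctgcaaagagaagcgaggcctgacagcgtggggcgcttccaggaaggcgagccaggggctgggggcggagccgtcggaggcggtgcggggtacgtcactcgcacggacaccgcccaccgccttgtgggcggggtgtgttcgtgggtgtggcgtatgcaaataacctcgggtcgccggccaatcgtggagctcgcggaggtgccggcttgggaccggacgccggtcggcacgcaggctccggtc
GGAAA was searched on both strands and was found 2 times in the Akap6 window, 1 time in a further Atp2b1 window and in no other window of these genes, and 55.6% of all windows held it. TGANTCA, the element of AP-1 factors, was searched on both strands, was found in none of the windows of the 8 genes, and stood in 6.75% of all windows. A match is a description of the letters and not a bound site.

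The other genes of calcium handling were described by lists, also chosen with earlier results of these data known. Of 103 listed genes 102 were in the table and 66 were tested. With RANKL 13 were called higher and 18 lower (47.0% of the 66, against 35.7% of all genes tested, 17.8% higher and 17.8% lower). With LEA added to RANKL 7 were higher and 2 lower (13.6%, against 6.31% of all genes, 4.54% higher and 1.77% lower). In RANKL + LEA against no RANKL 13 were higher and 15 lower (42.4%, against 27.3%, 15.5% higher and 11.8% lower). The same shares of all genes apply to the limma counts of called genes, from all 6 libraries, of each list below. Voom called 4314 of the 11905 genes tested with RANKL, 934 with LEA added to RANKL and 3359 in RANKL + LEA against no RANKL. The share of all genes at an unadjusted p under 0.05 was not counted. The count of 9 for LEA ranged from 0 to 6 when 1 library was left out. It was 1 without RANKL replicate 1, 0 without RANKL replicate 2, 1 without RANKL + LEA replicate 1 and 4 without RANKL + LEA replicate 2. Over all 11905 genes tested the 751 called with LEA became 144, 141 and 209 without RANKL replicate 1, RANKL replicate 2 or RANKL + LEA replicate 1.

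Upstream of the IP3 receptors, 2 of 6 tested phospholipase C genes rose with RANKL by limma and 3 by voom. By limma or voom 0 were called lower. At an unadjusted p under 0.05, 3 were higher and 1 was lower. Plcb4 was at 3.89 and 3.75 FPKM in RANKL + LEA, 6.26 and 6.76 FPKM in RANKL, and 0.422 and 0.49 FPKM in no RANKL libraries. It rose with RANKL (log2 fold change 3.57, SE 0.15, limma adjusted p = 1.01e-06) and was lower with LEA (−0.75, SE 0.15, limma adjusted p = 0.0244). The call with LEA ended without any 1 of the 4 RANKL + LEA and RANKL libraries. Plcb2, the isoform of blood cells, rose with RANKL by 1.41 on the log2 scale (SE 0.11, limma adjusted p = 2.38e-05).

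Of 3 tested genes among the other store channels and pumps, 2 rose with RANKL, Atp2b4 and Atp2c1, a calcium and manganese pump of the Golgi. Atp2c1 was at 27.8 and 26.3 FPKM in RANKL + LEA, 38.2 and 32.4 FPKM in RANKL, and 14.3 and 14.7 FPKM in no RANKL libraries (with RANKL, log2 fold change 1.27, SE 0.11, limma adjusted p = 5.66e-05). With LEA 0 were called by limma or voom, and 2 were lower at an unadjusted p under 0.05. Ryr1, Ryr2 and Ryr3, the ryanodine receptors that release the calcium of muscle stores, were under the filter and at no more than 0.407 FPKM in any library. The peptides that restrain SERCA in muscle, phospholamban (Pln), sarcolipin (Sln) and myoregulin (Mrln), were at no more than 0.091 FPKM.

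Among 7 tested partners of store-operated entry, 2 rose (Orai2 and Esyt2) and 2 fell (Esyt1 and Cracr2b) with RANKL. Esyt1 and Esyt2 encode tethers between the endoplasmic reticulum and the plasma membrane and moved in opposite directions. Esyt1 was at 59.2 and 61.2 FPKM in RANKL + LEA, 37.5 and 34.6 FPKM in RANKL, and 134.3 and 128.7 FPKM in no RANKL libraries. It fell with RANKL (−1.86, SE 0.10, limma adjusted p = 3.11e-06) and was higher with LEA (0.74, SE 0.10, limma adjusted p = 0.00616, and 0.0637 without RANKL replicate 2). Esyt2 was at 16.5 and 17.0 FPKM, 21.6 and 21.9 FPKM, and 8.92 and 9.06 FPKM in the same conditions, and rose with RANKL (1.27, SE 0.10, limma adjusted p = 2.65e-05).

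Of 10 tested calcium buffers and chaperones of the store, 6 fell with RANKL by limma and 5 by voom. In the other direction 0 were called higher by limma or voom (1 was higher at an unadjusted p under 0.05). Calr, calreticulin, the main calcium buffer of the store, was at 530.8 and 542.8 FPKM in RANKL + LEA, 584.6 and 557.0 FPKM in RANKL, and 876.5 and 931.3 FPKM in no RANKL libraries. Both no RANKL libraries lay far above the other 4 (with RANKL, −0.66, SE 0.10, limma adjusted p = 0.000904). Hspa5, the chaperone BiP, changed by −0.76 (SE 0.11, limma adjusted p = 0.000765) and Hsp90b1, the chaperone GRP94, by −0.99 (SE 0.20, limma adjusted p = 0.00397). With LEA 0 of the 10 were called by limma or voom, and 0 had an unadjusted p under 0.05.

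Of 12 tested channels and exchangers of the surface and the lysosome, 7 fell with RANKL and 0 were called higher by limma or voom, with 2 higher at an unadjusted p under 0.05. Trpv4, a cation channel, was at 1.47 and 1.64 FPKM in RANKL + LEA, 0.895 and 0.733 FPKM in RANKL, and 4.73 and 5.04 FPKM in no RANKL libraries. Trpm4, a channel opened by calcium, was at 1.61 and 1.79 FPKM, 0.949 and 0.956 FPKM, and 4.21 and 4.14 FPKM in the same conditions, and Slc8a1, the sodium/calcium exchanger NCX1, changed by −1.92 with RANKL (SE 0.15, limma adjusted p = 3.14e-05). The fall with RANKL was −2.45 for Trpv4 (SE 0.17, limma adjusted p = 1.35e-05) and −2.02 for Trpm4 (SE 0.15, limma adjusted p = 2.25e-05).

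With LEA 5 of these 12 (Trpv4, Trpm4, P2rx4, P2rx7 and Cacna1d) were higher than with RANKL and 0 were called lower by limma or voom, with 0 lower at an unadjusted p under 0.05. The log2 fold change was 0.86 for Trpv4 (SE 0.17, limma adjusted p = 0.0239), 0.77 for Trpm4 (SE 0.15, limma adjusted p = 0.0248) and 0.87 for P2rx4, an ATP-gated channel (SE 0.18, limma adjusted p = 0.0287). The count of 5 was 0 without RANKL replicate 1, without RANKL replicate 2 or without RANKL + LEA replicate 1, and 1 (P2rx4) without RANKL + LEA replicate 2. When either no RANKL library was left out, the calls of Trpm4, P2rx7 and Cacna1d were lost and those of Trpv4 and P2rx4 held.

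Of 11 tested genes of mitochondrial calcium uptake, 3 rose with RANKL and 2 fell, Mcu, the pore of the calcium uniporter, and Slc8b1, the mitochondrial sodium/calcium exchanger. The 3 that rose were Letm1, a cation exchanger of the inner membrane, and Vdac1 and Vdac2, pores of the outer membrane. Letm1 was at 22.6 and 25.2 FPKM in RANKL + LEA, 37.6 and 36.1 FPKM in RANKL, and 13.8 and 14.5 FPKM in no RANKL libraries, and was the one gene of the list called lower with LEA (−0.62, SE 0.10, limma adjusted p = 0.0147, and up to 0.0961 when RANKL replicate 1, RANKL replicate 2 or RANKL + LEA replicate 1 was left out). In the other direction 0 were called higher with LEA by limma and 1 by voom, Slc8b1 (0.70, SE 0.18, limma adjusted p = 0.0501), and 2 (Slc8b1 and Mcub) were higher at an unadjusted p under 0.05. Vdac1 rose by 0.83 (SE 0.09, limma adjusted p = 0.000206) and Vdac2 by 0.86 (SE 0.11, limma adjusted p = 0.000449) on the log2 scale.

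Of the 9 other A-kinase anchoring protein genes tested, 3 were called higher with RANKL and 0 lower, with 1 lower at an unadjusted p under 0.05 and 0 lower by voom. Akap2 changed by 1.37 (SE 0.23, limma adjusted p = 0.00176), Akap7 by 0.78 (SE 0.18, limma adjusted p = 0.00901) and Akap9 by 0.71 (SE 0.19, limma adjusted p = 0.0151). Without RANKL replicate 2 the count was 1. The call of Akap7 ended without that library or no RANKL replicate 1, and that of Akap9 without it or no RANKL replicate 2. With a trend over exon length removed, Akap9 had a log2 fold change of 0.46, under the fold limit. With LEA 0 were called by limma or voom, and 0 had an unadjusted p under 0.05.

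Of 8 tested partners of AKAP6, 1 rose and 1 fell with RANKL. Map2k5, the kinase MEK5, rose (0.95, SE 0.11, limma adjusted p = 0.000217). Prkar2b, a regulatory subunit of protein kinase A, was at 6.17 and 5.02 FPKM in RANKL + LEA, 2.92 and 2.76 FPKM in RANKL, and 10.1 and 11.1 FPKM in no RANKL libraries. It fell with RANKL (−1.86, SE 0.14, limma adjusted p = 2.16e-05) and was the one partner called higher with LEA (0.95, SE 0.14, limma adjusted p = 0.00932), a call lost when RANKL replicate 1, RANKL replicate 2 or RANKL + LEA replicate 1 was left out.

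The spread between the libraries of a condition went with exon length, and the 4 longest of the 10 transcripts, Itpr2, Akap6, Itpr1 and Itpr3, have 8930 to 11764 exonic bases. Over the 387 genes tested with at least 8000 exonic bases, replicate 2 over replicate 1 had a median log2 ratio of 0.40 in RANKL + LEA, 0.12 in RANKL and −0.11 in no RANKL cells. Over the 2746 genes under 1500 bases the medians were −0.14, −0.12 and 0.21. In RANKL + LEA the ratio was 0.36 for Akap6, 0.44 for Itpr2, 0.42 for Itpr3 and 0.09 for Itpr1. In RANKL against no RANKL the genes of at least 8000 bases had a median log2 fold change of 0.22, against 0.00 for all genes tested. No label names a batch. All fits were repeated with a smooth trend over length removed from each library, an alternative chosen after seeing the data. Then 5 of the 9 genes were again called with RANKL, Akap6 had a log2 fold change of −0.79 with LEA, and Itpr2 had −0.57 with RANKL (limma adjusted p = 0.00219), just under the fold limit. In RANKL + LEA against no RANKL the count of genes called was 6 of 9 by this fit, against 1 without it. Over all genes tested, 3294 were called by this fit in that comparison, against 3245 without it.

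**Figure D5:**
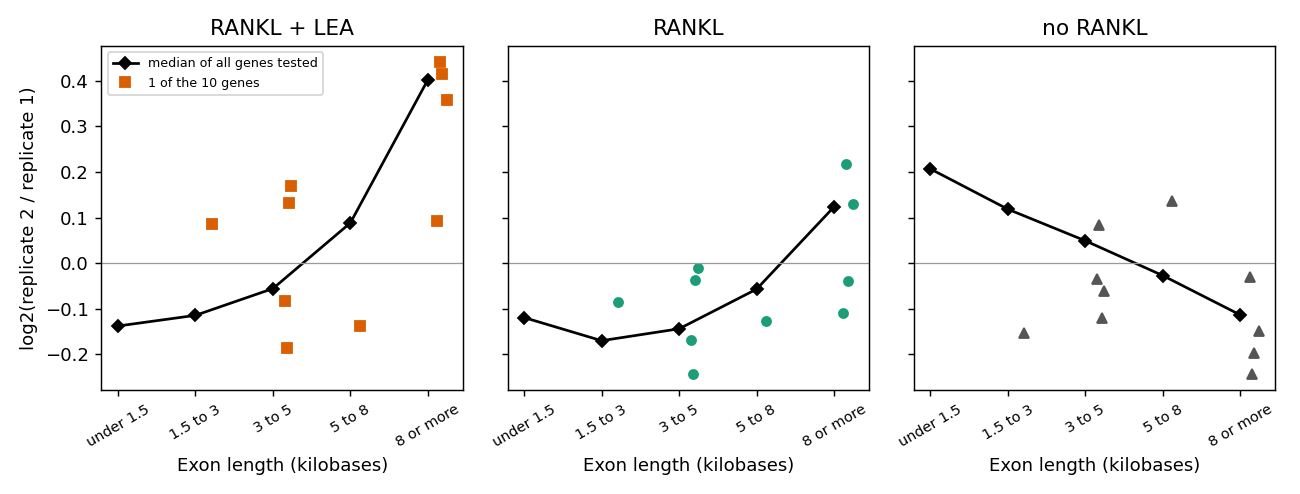
Log2 ratio of replicate 2 to replicate 1 (vertical) against exon length in kilobases (horizontal, 5 bins) in RANKL + LEA, RANKL and no RANKL cells. Black diamonds are medians of all genes tested and coloured points the 10 genes, and the median of the longest bin is 0.40 in RANKL + LEA and −0.11 in no RANKL cells.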

How the data were processed

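RNA-seq of BMMs covered 6 libraries. The authors mapped paired-end reads to mm10 with HISAT2, counted them on exons with HOMER (both strands, 1 RefSeq transcript per gene) and deposited FPKM values of 24940 genes. No tool versions were given in the sources used here. Their 2 columns of gene lists were not used, and 0 other per-sample columns were left without a sample.

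Log2(FPKM + 0.1) was fitted here with limma 3.58.1 in R 4.3.3 (lmFit, eBayes with trend, 3 residual degrees of freedom) over all 6 libraries, for genes that reached 0.5 FPKM in 2 libraries or more. Benjamini-Hochberg adjustment ran over the 11905 genes tested. Genes were called at a 1.5-fold change with adjusted p under 0.05. Reads were recovered from low values, of which 100% were whole within 0.1 read in every library. Intervals of fold changes are 95% intervals of the fit. Levels are FPKM, and fold changes on the log2(FPKM + 0.1) scale understate those of low genes.

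The members and gene lists were chosen with earlier results of these data known. Akap6 was left out of the tests in all comparisons, that of RANKL + LEA with RANKL included, which departs from the design as first set. The text names all 10 members, up to 3 genes per list and comparison with the smallest p among those called, and the 5 genes nearest to Akap6, of which 1 is not reported here. Orai3, Cracr2b, Mcu, Mcub, Slc8b1, P2rx7, Cacna1d, Atp2a1, the Ryr genes, Pln, Sln and Mrln were named after their values were seen. Cracr2b, Cracr2a and Mcub were matched through older symbols, and Strit1 was not matched. The fit was tested on simulated data. Alternatives were the pseudocount, filter, scaling, replicate block, libraries fitted, trend, voom on the recovered reads, omission of each library and, chosen after seeing the data, no fold limit and a length correction. Python 3.11.15 with pandas 2.3.3, scipy 1.17.1 and matplotlib 3.10.9 made the tables and figures.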

Additional observations from a re-analysis of the deposited data

How the results depend on the processing

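The 5 calls with RANKL held in every alternative run. With LEA against RANKL, the count of 0 held in every alternative run. With RANKL + LEA against no RANKL, the count of 1 was 3 at a pseudocount of 0.01 and with voom, 4 with quantile normalization or median centring, 1 to 4 with 1 library left out (4 without no RANKL replicate 2, 2 without RANKL + LEA replicate 1, 3 without RANKL + LEA replicate 2), 5 with no fold limit and 6 with the length trend removed, both chosen after seeing the data. Itpr3 was called in all of them. Over all genes tested, 3294 were called in this comparison with the length trend removed, against 3245 without that step. For the other calcium genes, the 9 called with LEA became 3 with no filter, 5 with only the libraries compared and 0 to 6 with 1 library left out. A fit that leaves out 1 library has 1 library in that condition, which is assumed to vary like the others.

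The differences between libraries 1 and 2 correlated at 0.12 (RANKL + LEA and RANKL), −0.08 (RANKL and no RANKL) and −0.25 (RANKL + LEA and no RANKL). These correlations cannot show whether libraries of the same number share mice or dishes. With the replicate number as a block, the counts of members called were 5 with RANKL, 0 with LEA and 1 for RANKL + LEA against no RANKL, and those of the other calcium genes 30, 8 and 28, against 31, 9 and 28 without the block.

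Some log2 fold changes near 0 changed sign, none of them called. With 1 library left out, those of RANKL + LEA against RANKL ranged over Itpr2 −0.25 to 0.19, Itpr3 −0.12 to 0.30, Atp2a2 −0.079 to 0.054, Akap2 −0.066 to 0.43, Akap7 −0.11 to 0.054, Akap9 −0.28 to 0.28, Hsp90b1 −0.52 to 0.017, Hspa5 −0.091 to 0.044, Orai2 −0.26 to 0.048 and Plcb2 −0.15 to 0.020, and that of Stim2 in RANKL against no RANKL over −0.11 to 0.13. With quantile normalization Atp2a2 was at 0.0083 with LEA and Stim2 at −0.0065 with RANKL, with median centring Stim2 was at −0.012, and with the length trend removed Akap9 was at 0.0023 with LEA.

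The depth of about 46382000 reads or more left the no RANKL level of Akap6 at 11 and 5 reads.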
